A study of Callithrix jacchus with 39 samples.

Results

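In the marmoset Callithrix jacchus, a New World primate, 7391 promoter-like regions carried H3K27ac in all 8 tissues profiled. They were chosen from H3K27ac peak positions. In each tissue a peak was kept where it overlapped a peak of the other replicate by at least 1 bp, and the kept peaks of all tissues were merged into a catalogue of 65161 regions. A tissue counted as acetylated at a region where its kept peaks overlapped it. The members were the regions acetylated in all 8 tissues that also overlapped an H3K4me3 peak of any of 15 libraries. "Promoter-like" refers to this rule, which 23637 catalogue regions met in any number of tissues. Whether a gene starts there was not analysed here, and regions are given by position on the calJac3 build.

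The series is a ChIP-seq study of H3K27ac and H3K4me3 in liver, spleen, kidney, pancreas, stomach, colon, heart and skeletal muscle. There were 16 H3K27ac libraries, replicates 1 and 2 of each tissue. There were 15 H3K4me3 libraries, because heart was represented by replicate 2 alone. The labels give no strain, age, sex or treatment and leave unsaid whether a tissue's replicates come from separate animals, so p-values measure only the spread between these libraries or tissues, which may be technical.

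Acetylation of lysine 27 on histone H3 marks active promoters and enhancers, and trimethylation of lysine 4 on the same histone marks mainly promoters. Promoters active in every tissue commonly belong to genes for basic cell functions such as translation, splicing, respiration and protein turnover, and many lie in CpG islands. The length of a marked domain around a promoter differs between genes, and long domains are often found at genes that give a cell type its identity.

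The lists behind these regions were unequal in length. H3K27ac lists held 24590 to 51554 peaks and H3K4me3 lists 16386 to 24424 peaks. The shortest H3K4me3 lists were replicate 1 of pancreas (16386 peaks) and of skeletal muscle (16850 peaks). Spleen replicate 1 was close to them, at 16946 peaks. Read depth is unknown, and a missing peak says only that none was called. The members took up 17.1 Mb of the genome. They held 28.3% to 55.0% of the length covered by an H3K27ac list and 44.8% to 62.5% of that of an H3K4me3 list. Liver had the lowest H3K27ac share at members (29.3 ± 1.40%, SD, n = 2) and heart the highest (53.3 ± 2.28%, SD, n = 2). The H3K27ac lists of liver were also the longest and those of heart the shortest.

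H3K4me3 was present in nearly every library at most members, although the rule asked for 1 library. It was found in all 15 libraries at 6733 members (91.1%) and in all 8 tissues at 7066 (95.6%). A further 236 members (3.19%) lacked it in 1 library. That library was pancreas replicate 1 at 117 of them and skeletal muscle replicate 1 at 62, the 2 shortest lists. Spleen replicate 1, a list of nearly the same length, was the missing library at 17. Single libraries of H3K4me3 met 93.6% (pancreas, replicate 1) to 99.3% (liver, replicate 2) of the members.

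At the edge of the H3K4me3 rule, 35 members had a peak in 1 library only, and 51 further regions of all 8 tissues had none and were left out. The single library was liver replicate 2 for 12 of the 35, spleen replicate 1 for 10 and colon replicate 2 for 6. Regions on both sides of this edge were long. Their median lengths were 3006 bp (n = 35) just inside and 2527 bp (n = 51) just outside, against 2057 bp over all members. At the edge of the tissue rule, 1951 promoter-like regions were acetylated in 7 tissues, with a median H3K27ac cover of 881 bp against 1337 bp in members (mean of 16 libraries per region). That mean includes the libraries of the tissue without acetylation, and H3K27ac chose both sets, so a lower value follows in part from the rule. The tissue without acetylation was skeletal muscle at 572 of these 1951 regions (29.3%) and spleen at 404 (20.7%). Heart, colon and kidney were missing at 289, 287 and 277, and stomach, liver and pancreas at 51, 44 and 27.

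H3K27ac covered more of a member in liver than in heart. The median covered length per member was 1454 bp and 1651 bp in the liver libraries and 1076 bp and 1220 bp in the heart libraries. Pancreas (1372 bp and 1493 bp) and colon (1466 bp and 1383 bp) followed liver, and their values overlapped those of liver and each other. Stomach had 1344 bp and 1325 bp. Skeletal muscle (1258 bp in both libraries) and spleen (1238 bp and 1237 bp) had closely matching replicates. The kidney libraries differed more, at 1099 bp and 1330 bp, and spanned the values of skeletal muscle and spleen and 1 value each of heart and stomach. Over tissues the mean was 1325 ± 136 bp (SD, n = 8). These lengths come from the lists that chose the members and are a description.

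**Figure D1:**
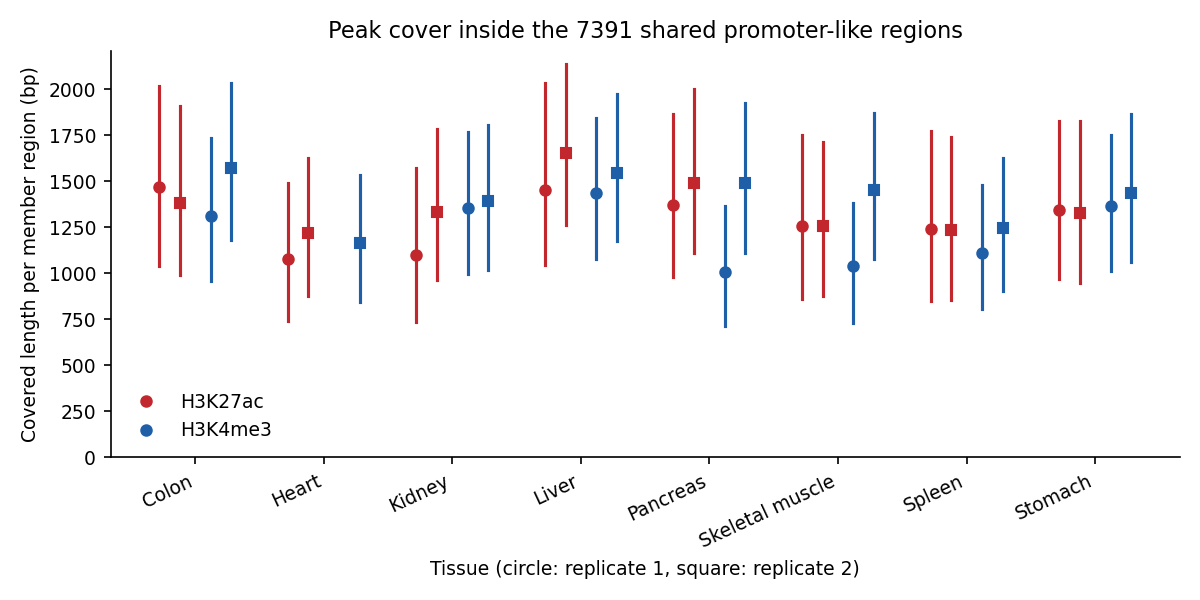
Median covered length per member region in bp (points) with the 25th to 75th percentile over 7391 members (lines), for each library of 8 tissues, H3K27ac in red and H3K4me3 in blue. The H3K27ac medians lie between 1076 and 1651 bp, and H3K4me3 replicate 1 of pancreas and skeletal muscle lie lowest of their mark at 1006 and 1039 bp.

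H3K4me3 covered members to a similar length, counted inside the H3K27ac-defined region. Liver again had the highest mean of its library medians (1435 bp and 1547 bp). Replicate 2 of colon lay above both, and replicate 2 of pancreas and of skeletal muscle lay between them. The heart library had 1165 bp and the spleen libraries 1112 bp and 1248 bp. Colon had 1313 bp and 1570 bp, stomach 1365 bp and 1435 bp, and kidney 1352 bp and 1390 bp. Replicates were furthest apart in pancreas (1006 bp and 1493 bp) and skeletal muscle (1039 bp and 1453 bp), where one library alone lay below the range of the other tissues. The mean over tissues was 1318 ± 124 bp (SD, n = 8). Replicate 2 had the longer median in 7 of 7 tissues with replicates. In 27 ± 4.9% of members H3K27ac was broken into 2 or more peaks in a library, and H3K4me3 in 16.9 ± 3.11% (SD, n = 8). Liver had the lowest share in both marks, at 16.8% and 10.2%.

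At most members the longest and the shortest tissue differed by less than 2-fold. Lengths were compared as log2(covered bp + 300), with each library centred on its own median. The SD over the 8 tissue means had a median of 0.20 log2 units in H3K27ac, against 0.19 between replicates of a tissue. In H3K4me3 the values were 0.12 and 0.14. The first SD is over means of 2 libraries and the second over single libraries, so their sizes are not directly comparable. The longest tissue exceeded the shortest by a median of 1.51-fold in H3K27ac and 1.29-fold in H3K4me3, on the scale with 300 bp added. A ratio of 2 or more was seen at 1305 members (17.7%) in H3K27ac and 686 (9.28%) in H3K4me3, and a ratio of 4 or more at 91 and 89.

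The members with the most even H3K27ac carried H3K4me3 in every library. These were the 3 with the smallest H3K27ac SD over tissues among members above the median cover, so their even H3K27ac follows from the choice. At chr15:24604067-24606162 H3K27ac covered 1434 to 1972 bp over 16 libraries (median 1636 bp), and H3K4me3 1048 to 1957 bp over 15 (median 1679 bp). At chr5:43220282-43222200 the ranges were 1198 to 1895 bp and 997 to 1633 bp. At chr10:120779751-120781551 they were 1220 to 1776 bp and 1244 to 1801 bp. In all 3 the marks covered about the same length. The lowest H3K4me3 value belonged to skeletal muscle replicate 1 in the first 2 and to heart in the third.

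The small differences in H3K4me3 length that remained were shared by libraries of the same tissue. Relative length was the centred log2 length of a member minus its mean over libraries. Across members it correlated with a mean Pearson r of 0.22 in the 7 replicate pairs and -0.09 in the 98 pairs that crossed tissues. The difference of 0.31 passed the test (two-sided permutation test, 100000 relabellings of 15 libraries, p = 2e-05, adjusted p = 0.00014 over 7 planned tests). Liver replicates were most alike (r = 0.59), followed by kidney (0.30), colon (0.30), spleen (0.24) and stomach (0.24). Pancreas (-0.03) and skeletal muscle (-0.08) were not alike, the tissues in which replicate 1 was much shorter than replicate 2. Without these 2 short lists, a choice made after seeing the data that takes out both negative pairs, the difference was 0.42.

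Among different tissues, colon and stomach had the most similar member profiles in both marks. Their mean r was 0.22 in H3K27ac (4 library pairs, 0.19 to 0.25) and 0.15 in H3K4me3 (0.05 to 0.27). Heart and skeletal muscle ranked next of the 28 tissue pairs in both marks, with 0.015 in H3K27ac (-0.07 to 0.10) and 0.09 in H3K4me3 (2 library pairs, -0.03 and 0.22). In H3K27ac this was hardly apart from the following pair, pancreas and stomach (0.007, -0.03 to 0.05). Heart and skeletal muscle are both striated muscle, and colon and stomach are both gut. Least alike were skeletal muscle and stomach in H3K27ac (-0.26) and heart and liver in H3K4me3 (-0.24). Within tissues H3K27ac had a mean r of 0.42 (8 pairs, 0.18 in kidney to 0.63 in skeletal muscle), against -0.10 between tissues. The H3K27ac values and the ranks are descriptions without a test, and subtracting a region's mean pushes correlations between libraries below 0.

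**Figure D2:**
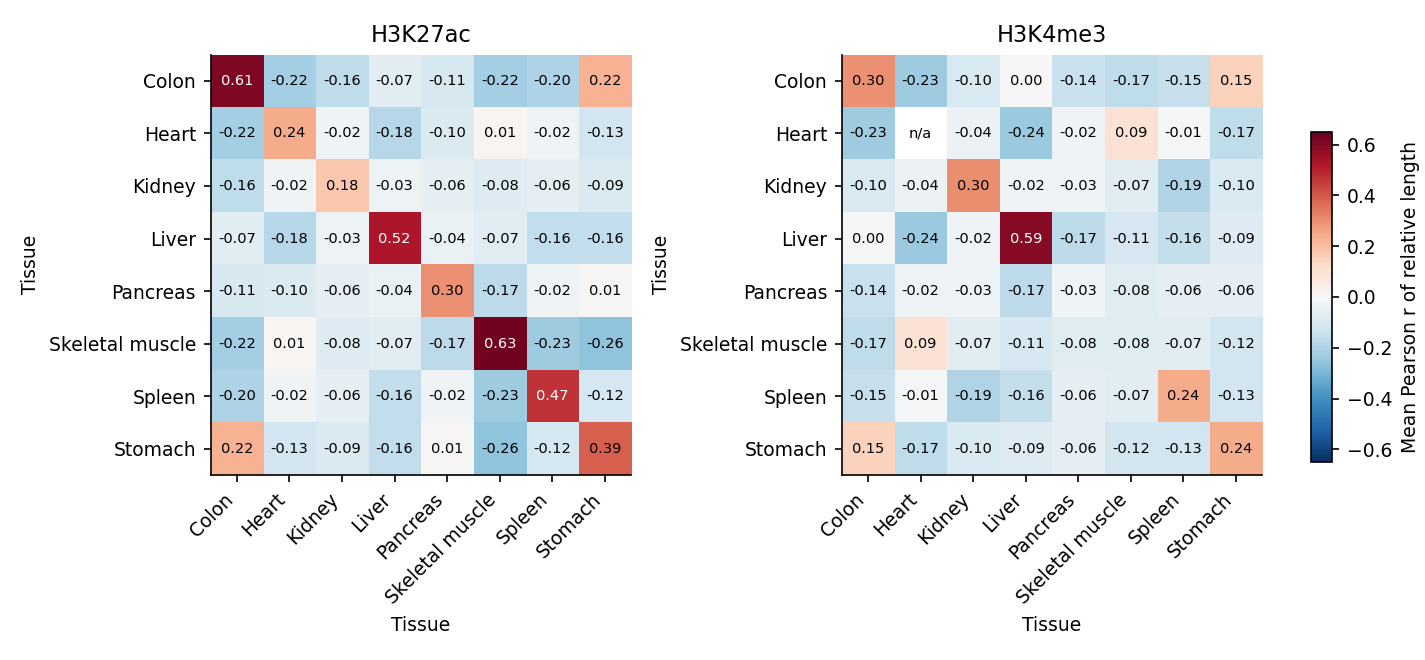
Mean Pearson r of relative covered length over 7391 members between libraries of 2 tissues, with replicates of 1 tissue on the diagonal, for H3K27ac (left) and H3K4me3 (right). Colon with stomach is the highest pair off the diagonal in both panels (0.22 and 0.15), and heart has 1 H3K4me3 library and so no diagonal value.

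Few members had an H3K4me3 length that differed between tissues one region at a time. With limma's F test over 8 tissues and Benjamini-Hochberg adjustment over 23637 promoter-like regions, 206 members passed (2.79%, against 15% of all promoter-like regions). The share among members was the lower, and the difference between the shares was not tested. At an unadjusted p under 0.05 there were 661 members, and the background share at that cut is not given here. The count after adjustment depended on single lists. It was 369 without the 2 short lists (4.99% of members, against 23.7% of promoter-like regions). It rose to 334 without pancreas replicate 2 and 329 without skeletal muscle replicate 2. It fell to 121 without liver replicate 2, to 133 and 128 without stomach replicate 1 or 2, and to 136 and 137 without kidney replicate 1 or 2. Without centring of the libraries it was 109.

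Longer H3K4me3 in single tissues was found mostly in liver and colon. In contrasts of each tissue with the mean of the 7 others, 237 members were longer in at least 1 tissue (3.21%, against 15.5% of promoter-like regions) and 146 shorter (1.98%, against 6.51%). Of the 237, 214 were longer in 1 tissue, 21 in 2, 1 in 3 and 1 in 5. Without liver replicate 2 the count of longer members was 117, and without the 2 short lists it was 452.

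Liver had 118 longer members (background 7.09% of promoter-like regions) and 20 shorter (1.86%). Colon had 78 longer (4.73%) and 28 shorter (2.25%). These were the only tissues with over 25 longer members. Spleen had 21 longer (1.59%) and 45 shorter (2.18%), so that shorter members prevailed there. Kidney had 19 longer (2.39%) and 17 shorter (0.787%). Stomach had 19 longer (1.76%) and 2 shorter (0.529%). Pancreas and skeletal muscle, with 1 short library each, had the fewest longer members after heart. Pancreas had 6 longer (1.02%) and 7 shorter (0.360%), and skeletal muscle 3 longer (0.271%) and 16 shorter (0.850%). In heart, with 1 library whose spread was taken from the other tissues, limma called 0 members longer (0.283%) and 21 shorter (0.601%). Both heart counts rest on that 1 library.

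In each tissue and direction the share among members, at most 1.60%, lay below the share among all promoter-like regions. The counts themselves were not stable to single libraries. Liver fell from 118 to 22 longer members without its replicate 2, and colon from 78 to 31 or 27 without its replicate 1 or 2 and to 48 without stomach replicate 1. Shorter members in colon rose from 28 to 59 without colon replicate 2, which left more shorter than longer members there, and to 51 without colon H3K27ac replicate 1. They fell to 7 without colon replicate 1. Skeletal muscle rose from 3 to 39 longer members without its short replicate 1 and to 51 (background 5.93%) without both short lists. Kidney fell to 1 or 4, stomach to 2 or 0 and spleen to 5 without one of their own libraries. Shorter members rose to 193 in pancreas and 134 in skeletal muscle when the short list alone stood for the tissue.

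**Figure D3:**
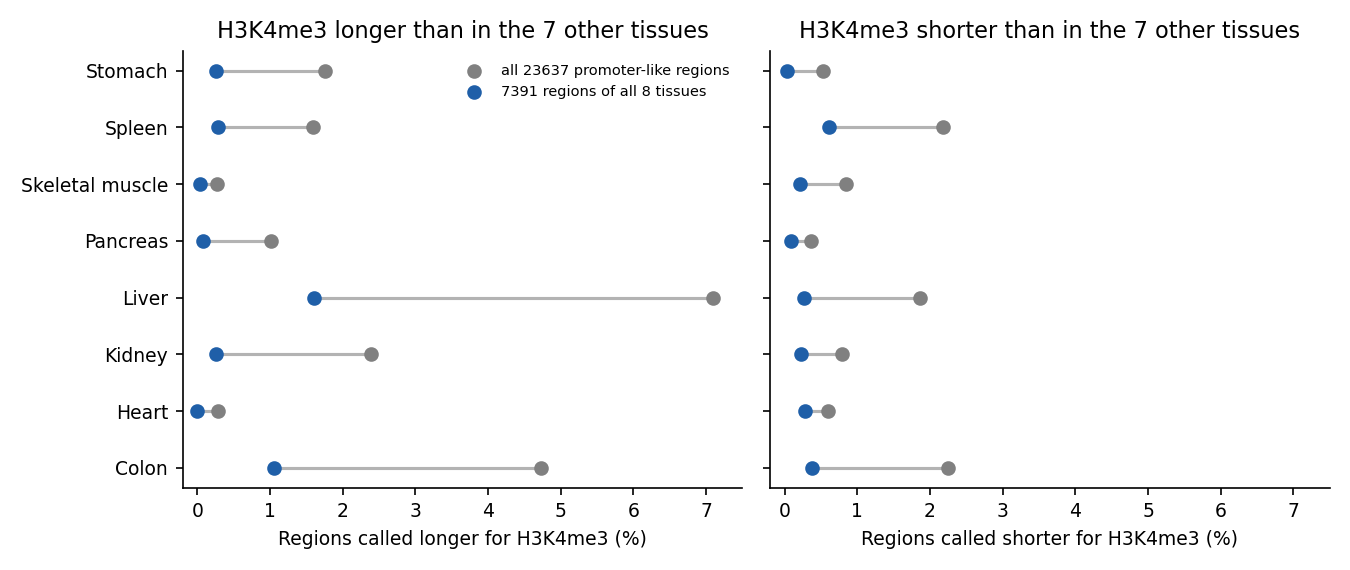
Share of regions called longer (left) or shorter (right) for H3K4me3 in each tissue against the 7 others (limma, adjusted p under 0.05), for 7391 members in blue and all 23637 promoter-like regions in grey. In both panels every blue point lies left of its grey point, with liver highest for longer members at 1.60% against 7.09%.

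The members with the largest H3K4me3 gains fell into 2 kinds, those without H3K4me3 in some other tissues and those with a longer domain. An example of the first kind was chr8:111614280-111619470, called in both liver and stomach. H3K4me3 covered 3218 bp and 3550 bp in liver, 2774 bp and 3605 bp in stomach and 932 bp and 1660 bp in colon. It covered 0 bp and 300 bp in pancreas and 0 bp and 1156 bp in skeletal muscle. H3K4me3 was at 0 in heart, kidney and spleen. All liver and stomach libraries lay above the 11 others. The liver difference was 2.37 ± 0.37 log2 units (SE; limma, adjusted p = 0.00253), and that of stomach 2.34 ± 0.37 (SE; adjusted p = 0.0104). H3K27ac was longest in liver there, at 4113 bp and 5098 bp, and 300 to 3419 bp elsewhere. The stomach call was lost without either stomach library (adjusted p between 0.000217 and 0.165 over 43 alternatives).

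At chr3:189934917-189942791 both marks were long in the same pair of tissues. H3K27ac covered 6590 bp and 7394 bp of it in liver, 3741 bp and 3443 bp in kidney, and 510 to 1518 bp in the 12 libraries of other tissues. H3K4me3 covered 2926 bp and 3302 bp in liver, 3697 bp and 2715 bp in kidney, and 692 to 1573 bp elsewhere. Liver and kidney did not overlap the other tissues in either mark. The H3K4me3 difference was 0.96 ± 0.13 in liver (SE; limma, adjusted p = 0.00112) and 1.09 ± 0.13 in kidney (SE; adjusted p = 0.00122). The kidney call stood in all 43 alternatives (adjusted p at most 0.03).

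Colon was highest at chr22:34598687-34600834, with H3K4me3 of 1961 bp and 2069 bp. Stomach followed at 1204 bp and 838 bp, and the other libraries held 0 to 638 bp. The colon difference was 2.06 ± 0.30 (SE; limma, adjusted p = 0.00232), past the threshold in all 43 alternatives. H3K27ac at this region was 1791 bp and 1980 bp in colon, above all other libraries, the highest of which had 1678 bp. At chr11:73870678-73873266 colon had 1028 bp and 1957 bp of H3K4me3 and stomach 1030 bp and 1195 bp, so these tissues overlapped. The colon call there (adjusted p = 0.0216) was lost without either colon library and with a pseudocount of 100 bp.

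In the spleen, chr22:16359621-16362894 carried 2795 bp and 2250 bp of H3K4me3, overlapping the liver values of 2690 bp and 2989 bp and above the remaining libraries (445 to 1422 bp). Its difference was 1.14 ± 0.18 (SE; limma, adjusted p = 0.00849) and was lost without spleen replicate 1. H3K27ac there ranged from 1541 bp in skeletal muscle to 3274 bp in liver, with 3011 bp and 2922 bp in spleen. At chr22:937936-940578 spleen had 1613 bp and 1360 bp, overlapping colon (1428 bp and 1654 bp) and stomach (1050 bp and 1594 bp). The highest value there was that of a colon library. This second spleen call (limma, adjusted p = 0.0457) was lost in 12 of 43 alternatives. They included each in which a spleen, colon, liver or stomach H3K4me3 library, the heart library or skeletal muscle replicate 2 was left out. In stomach, chr20:23598696-23602695 had 1471 bp and 1658 bp, within the colon values of 1119 bp and 1889 bp, and its call (adjusted p = 0.0107) was lost without either stomach library. On the X chromosome, chrX:140258320-140261378 had 2260 bp and 1913 bp in liver and was at 0 in 11 of 13 other libraries. Its liver difference was 2.51 ± 0.48 (SE; limma, adjusted p = 0.0079), which missed the threshold without either liver library.

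In pancreas and skeletal muscle 3 of the 4 leading members had unequal replicates. At chr5:29362061-29366706 H3K4me3 covered 2111 bp and 3564 bp in skeletal muscle, above the 780 to 1998 bp of the other libraries. H3K27ac was 4458 bp and 4228 bp there, with heart next (1875 bp and 1824 bp) and 300 to 1450 bp elsewhere. The H3K4me3 call (0.92 ± 0.17, SE; limma, adjusted p = 0.0368) was lost in 11 of 43 alternatives, among them those without a kidney, liver, spleen or stomach H3K4me3 library, without skeletal muscle replicate 2 or without skeletal muscle H3K27ac replicate 1 (adjusted p up to 0.21). At chr2:52674191-52678064 pancreas had 470 bp and 1093 bp and 1 other library 300 bp (limma, adjusted p = 0.00421), a call lost without stomach H3K27ac replicate 2 (0.155) and in the central 2000 bp (0.0751). At chr15:27799492-27801856 skeletal muscle had 311 bp and 623 bp, stomach 384 bp and 399 bp, and colon 0 bp and 308 bp. Muscle replicate 1 thus lay below both stomach libraries. The muscle call (limma, adjusted p = 0.0208) was lost without its replicate 2 and with peaks of −log10 q of at least 5 alone (0.093). At chr2:151660146-151662640 pancreas had 2041 bp and 2285 bp (limma, adjusted p = 0.0262), and liver was longer still at 2376 bp and 2317 bp. That call was lost without pancreas replicate 1, liver replicate 2, spleen replicate 2 or either stomach library (adjusted p up to 0.176). At chr18:4543118-4546569 kidney had 685 bp and 567 bp and the others 0 to 441 bp (limma, adjusted p = 0.0335). It was lost without any 1 of the kidney, colon, spleen or stomach H3K4me3 libraries (adjusted p up to 0.333).

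At many members both H3K27ac libraries of 1 tissue lay above all 14 others in relative length. This held for 1740 members (23.5%, against 43.9% of promoter-like regions). The rule used these lists, so the counts are a description. Skeletal muscle had 451 (6.10% of members, background 8.44%), spleen 405 (5.48%, 6.25%), colon 270 (3.65%, 7.56%) and liver 224 (3.03%, 11.4%). Heart had 151 (2.04%, 2.31%), stomach 94 (1.27%, 2.22%), kidney 82 (1.11%, 2.86%) and pancreas 63 (0.852%, 2.94%). In each tissue the share among members was the lower, with spleen and heart near their background. Skeletal muscle and spleen had the most members, and liver the most promoter-like regions. H3K27ac libraries were centred on members, which takes out a longer cover of a whole tissue there. This order is therefore not a result about members.

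The largest H3K27ac gain among members was at chr5:76475011-76485148 in skeletal muscle. H3K27ac covered 8835 bp and 8300 bp of it there and 330 to 4825 bp elsewhere (median 1620.5 bp). H3K4me3 covered 0 bp and 1981 bp in the same muscle replicates, while liver had 1528 bp and 2443 bp. The second, chr22:4531611-4537215, had 5358 bp and 4831 bp of H3K27ac in skeletal muscle and 387 to 1489 bp elsewhere. H3K4me3 was 913 bp and 3597 bp in muscle and 869 to 1723 bp elsewhere. In both regions the muscle libraries of H3K27ac were close and those of H3K4me3 far apart, and limma called no H3K4me3 difference (adjusted p = 0.825 and 0.257).

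Leading members of liver, spleen, stomach and colon stood above nearly all or all other libraries in the same way. At chr15:6902409-6907554 H3K27ac was 4702 bp and 3794 bp in liver and 421 to 1306 bp elsewhere, and H3K4me3 was longer in liver by 0.51 ± 0.13 (SE; limma, adjusted p = 0.0398). At chr11:67164483-67170099 spleen had 5338 bp and 5395 bp and the others 413 to 3092 bp, the lowest in skeletal muscle. H3K4me3 there was 3199 bp and 2537 bp in spleen and 1065 to 2029 bp elsewhere (difference 0.90 ± 0.13, SE; limma, adjusted p = 0.00457). The leading stomach member, chr15:96983336-96988807, had 5252 bp and 5171 bp in stomach and 4048 bp and 1472 bp in spleen. Its H3K4me3 was 1932 bp and 2143 bp in stomach and at most 1223 bp elsewhere (difference 0.75 ± 0.13, SE; limma, adjusted p = 0.0147). At chr16:51095516-51103662 colon had 7717 bp and 6986 bp of H3K27ac and 423 to 5094 bp was found elsewhere. H3K4me3 was 487 bp and 968 bp in colon and 749 bp and 1671 bp in liver, and the colon difference missed the threshold (limma, adjusted p = 0.279). At chr22:33361278-33364949 spleen had 3672 bp and 2824 bp of H3K27ac and the others 324 to 2032 bp. The only H3K4me3 of that region was 645 bp in skeletal muscle replicate 2.

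In pancreas, chr7:81438250-81444306 had 5047 bp and 5067 bp of H3K27ac, with liver next at 3010 bp and 2638 bp. H3K4me3 in pancreas was 1207 bp and 2273 bp, against 739 to 1383 bp elsewhere, so that 1 of its libraries lay within the range of the others (difference 0.68 ± 0.12, SE; limma, adjusted p = 0.0258). At chr13:25730030-25734522 pancreas had 3809 bp and 4349 bp of H3K27ac, while H3K4me3 was 307 bp and 593 bp there and 411 to 820 bp elsewhere (limma, adjusted p = 0.763). The leading kidney and heart members stood apart by less. At chr5:110600912-110603590 kidney had 2078 bp and 1886 bp of H3K27ac, above the others in relative length, although a liver library had 1993 bp. H3K4me3 there was 2018 bp and 1828 bp in kidney and 354 to 1351 bp elsewhere (difference 0.94 ± 0.13, SE; limma, adjusted p = 0.00268). Heart had the smallest leading gain of the 8 tissues on the relative scale, at chr18:14730223-14733439 (2864 bp and 2838 bp, 662 to 2541 bp elsewhere). H3K4me3 was 627 bp in the heart library there and 546 to 1237 bp elsewhere. The second-ranked members of colon (chr14:1342643-1347491), heart (chr11:121305594-121310389), kidney (chr20:21856303-21859486) and stomach (chr15:47401021-47406560) had no H3K4me3 call in that tissue (limma, adjusted p of 0.256, 1.0, 0.993 and 0.502).

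**Figure D4:**
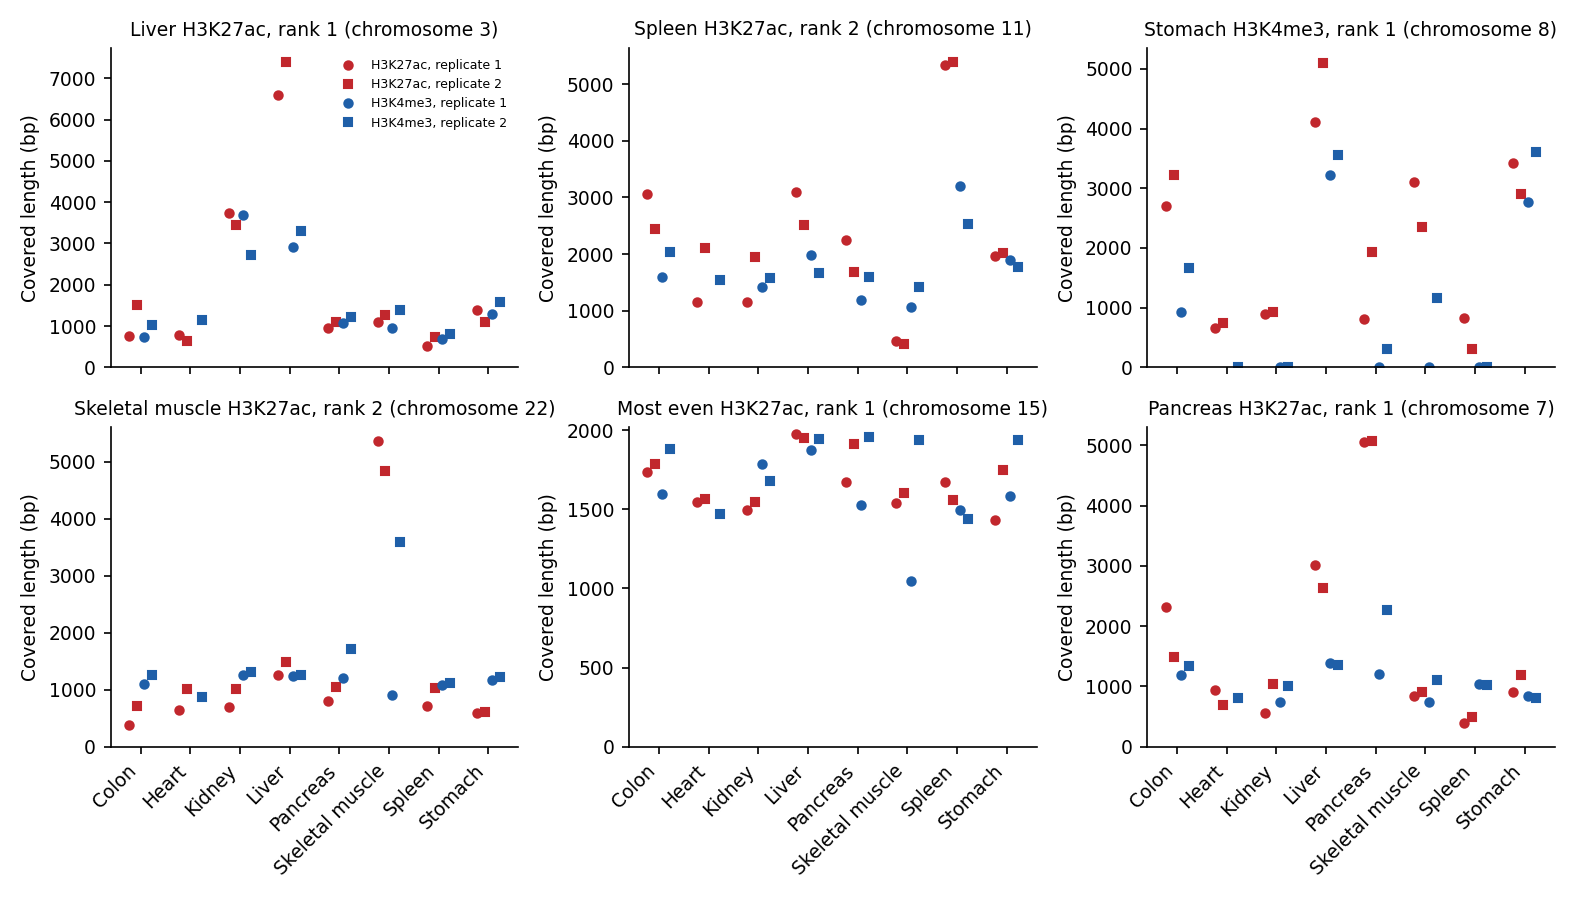
Covered length in bp at 6 members chosen by the naming rule, by tissue, H3K27ac in red and H3K4me3 in blue, with circles for replicate 1 and squares for replicate 2. In the liver panel on chromosome 3 both marks are highest in liver and kidney, and in the skeletal muscle panel on chromosome 22 H3K27ac is 5358 and 4831 bp while H3K4me3 is 913 and 3597 bp.

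Members with relatively long H3K4me3 in a tissue had the higher median H3K27ac length there. Tissue excess was the mean relative length in a tissue minus that in the 7 others. In each tissue the 5% of members with the highest H3K4me3 excess (370) were compared with the remaining members. Their median H3K27ac excess was 0.20 ± 0.07 log2 units against 0.00 ± 0.02 (SD, n = 8). The difference of 0.20 ± 0.08 was above 0 in each of 8 tissues. It is given without a test, because the H3K27ac lists chose the members and set the bounds inside which both marks were counted. Liver (0.31), spleen (0.29) and colon (0.26) had the largest differences, followed by kidney (0.19), stomach (0.17) and pancreas (0.15). Skeletal muscle and heart had 0.12 and 0.11.

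**Figure D5:**
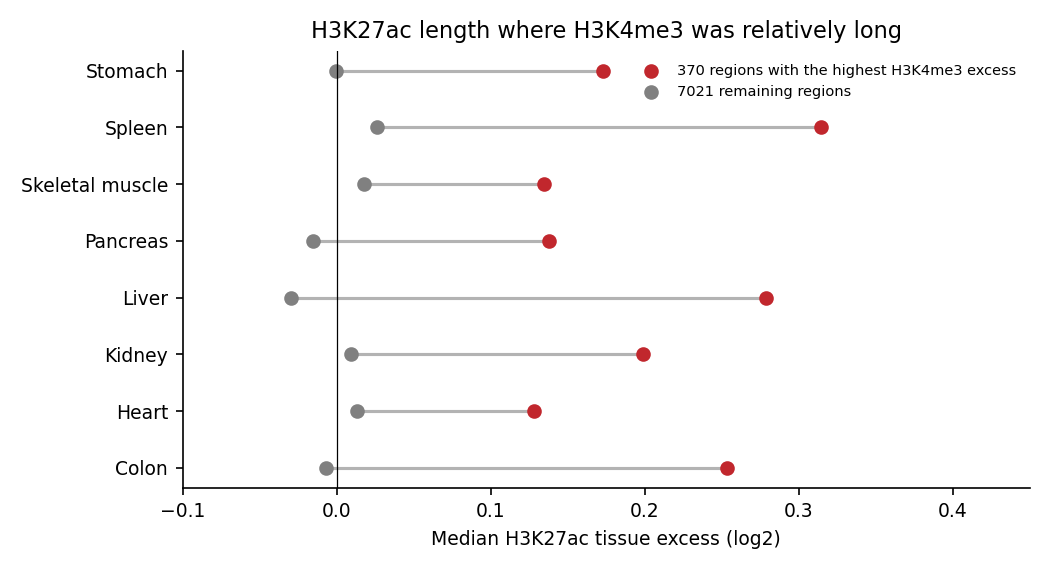
Median H3K27ac tissue excess (log2) in each tissue at the 370 members with the highest H3K4me3 excess there (red) and at the remaining members (grey). The red point lies to the right in 8 of 8 tissues, from 0.13 in heart to 0.31 in spleen.

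Over all members the excess of the marks correlated weakly within a tissue, with Pearson r from 0.14 in pancreas to 0.49 in liver (mean 0.29 ± 0.11, SD, n = 8). These are correlations across 7391 regions that share libraries, not independent samples. Of the 264 calls of longer H3K4me3 in a tissue, 252 (95.5%) had an H3K27ac excess above 0, against 51.3% of all combinations of member and tissue. In 73 calls both H3K27ac libraries also lay above all 14 others, which is 27.7% of the H3K4me3 calls and 4.20% of the 1740 H3K27ac cases. Over all combinations of member and tissue the H3K27ac lead was seen in 2.94% and the H3K4me3 call in 0.446%.

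Inside members both marks covered largely the same bases. H3K4me3 beyond these regions, which H3K27ac peaks drew, was not counted, and no expected overlap was computed. Of H3K4me3 length in members, 84.0 ± 4.19% lay under H3K27ac of the same tissue, and 78.2 ± 4.48% of H3K27ac length lay under H3K4me3 (SD, n = 8). The first share was lowest in kidney (77.6%) and highest in liver (90.6%). H3K27ac was the longer mark at 67.1% of members in pancreas and at 32.6% in kidney. Averaged over libraries, the lengths of both marks at a member correlated with r = 0.67 over 7391 regions, which share the bound set by region length.

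The strongest peaks of the marks lay close together. The median distance between an H3K27ac and an H3K4me3 summit at members was 114 ± 18.7 bp (SD, n = 8), lowest in liver (73 bp) and highest in heart (131 bp). Between H3K27ac replicates it was 88.6 ± 19.1 bp. The difference was 25.3 ± 13.8 bp and had the same direction in 8 of 8 tissues. It is a description, since the rule asked H3K27ac replicates to overlap and asked no such overlap between marks. Against H3K4me3 replicates (79.3 ± 13.2 bp) the marks were further apart by 32.3 ± 14.2 bp (SD, n = 7), with a p of 0.0156 in the exact permutation test, also after adjustment, and the same direction in all 7 tissues. That is the smallest p 7 tissues allow, and the same members were measured in each tissue. Without the 2 short lists the difference was 31.25 bp in 5 tissues, with an exact permutation p of 0.0625, the lowest that 5 tissues give. Over tissues 58.3 ± 4.65% of members had the summits of both marks within 150 bp, and 3.88 ± 0.62% had them more than 1000 bp apart (SD, n = 8).

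Members carried stronger and longer H3K4me3 peaks than promoter-like regions acetylated in 6 or 7 tissues, of which there were 3357. Whole peaks were measured, in the tissues where a region was acetylated. The median longest H3K4me3 peak was 1261 ± 150 bp at members and 931 ± 104 bp at the regions of 6 or 7 tissues (SD, n = 8). The difference of 330 ± 48.4 bp was above 0 in 8 of 8 tissues, from 271 bp in heart to 414 bp in liver (exact permutation test that flips signs over tissues, both sides, p = 0.00781, adjusted p = 0.00911). With 8 tissues no smaller p than 0.00781 can be reached. The tests here measured the same members in each tissue, and each compared region in 6 or 7 of them. The 8 tissues are therefore not independent repeats. H3K4me3 was present in every library of the tissue at 96.4 ± 1.58% of members and 82.3 ± 5.97% of the others. That difference was 14.1 ± 4.52 percentage points, from 8.73 in colon to 20.7 in pancreas (8 of 8 tissues, exact permutation test, p = 0.00781, adjusted p = 0.00911). The authors' fold enrichment of the strongest peak stood at percentile 77.2 ± 1.66 of its own list at members and 59.0 ± 2.90 at the others. The difference of 18.2 ± 2.02 percentiles held in 8 of 8 tissues (exact permutation test, p = 0.00781, adjusted p = 0.00911). H3K27ac strength moved with these differences, at percentile 86.7 ± 2.29 in members and 68.8 ± 4.4 in the others, as did median region length (2057 bp and 1647 bp). A longer region can overlap more and longer H3K4me3 peaks, so part of these differences can follow from how H3K27ac lists drew the sets. The part of H3K27ac strength and region length in the result was not tested.

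Members were unevenly spread over chromosomes. Chromosome 22 was densest, with 462 members or 9.41 per Mb up to the last catalogue region, followed by chromosome 5 (683 members, 4.29 per Mb) and chromosome 18 (193 members, 4.07 per Mb). All promoter-like regions were dense there too. Members made up 33.0% of them on chromosome 22 and 33.3% on chromosomes 5 and 18, against 31.3% over the genome. The X chromosome had 142 members. Its share was 1.92% of members against 3.19% of the regions of 6 or 7 tissues. Of the promoter-like regions on X 21.8% were members, the lowest share of any named chromosome, and chromosome 10 had the highest (38.4%). Chromosome Y had 8 members, and 208 lay on unplaced or random sequences. The median distance to the nearest other member was 54.0 kb, and 20% of members had one within 10 kb. Among regions of 6 or 7 tissues, which are fewer, the values were 116 kb and 14.1%. These positions are described without a test.

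The 3 members with the longest mean H3K27ac cover held far more H3K27ac than H3K4me3, which follows in part from that choice. Over all members the median of the mean lengths was 1337 bp in H3K27ac and 1335 bp in H3K4me3. At chr5:39493491-39503978 H3K27ac covered a mean of 7263 bp over 16 libraries, from 787 bp in spleen replicate 2 to 9527 bp in liver replicate 2. H3K4me3 ranged from 0 bp to 5334 bp there, highest in liver and kidney. At chr4:36671476-36682956 the mean H3K27ac cover was 7124 bp (3533 to 10739 bp), lowest in heart and highest in liver. At chr5:41412232-41425638, at 13407 bp the longest of all members, it was 7041 bp, and the spleen libraries stood highest at 12025 bp and 11931 bp. H3K4me3 was at 0 in 7 libraries there and highest in a spleen library, at 2616 bp and 543 bp in the pair. When lists were cut to their 20000 strongest peaks, the means were 4599, 6720 and 5969 bp.

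The long members with H3K4me3 in 1 library had short H3K4me3 peaks. At chr10:122643391-122648975 H3K27ac covered 1201 to 4599 bp, highest in heart, and the only H3K4me3 was 539 bp in skeletal muscle replicate 1. At chr22:6014694-6020216 it was 627 bp in colon replicate 2, under 1149 bp of H3K27ac in that replicate, while liver had 4099 bp and 5464 bp of H3K27ac and no H3K4me3. At chr22:4088577-4093579 it was 501 bp in liver replicate 2. The longest regions of all 8 tissues with no H3K4me3, which are not members, reached similar H3K27ac cover. Their means were 4186 bp at chr5:84075193-84084278, 3150 bp at chr7:46522538-46528973 and 3066 bp at chr8:12174218-12180149. At this edge of the rule the H3K27ac lengths of members and non-members overlapped.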

How the data were processed

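Each of the 31 ChIP-seq libraries was deposited as a peak list of its own. Per the labels, the antibodies were ab4729 for H3K27ac and ab8580 for H3K4me3. The 8 input samples were not analysed here. Tools named in the submitters' processing notes were MACS2 2.1.1.20160309, bedtools 2.26, Bowtie 1.1.2 and SAMtools 1.3.1, with no role given. Peak names in the files carry the build calJac3. Fold enrichment, a ratio over background in the authors' lists, only ranked peaks within 1 list. In the deposited lists −log10 p began at 5.09 and −log10 q at 3.04. The shortest peak was 300 bp. Read depth is unknown. A longer list can lengthen regions and add overlaps.

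Members, lists and the naming rule were chosen with earlier results of these data known. Covered length was counted inside catalogue regions. Lengths were log2(bp + 300), centred per library on regions with H3K4me3 in all 15 libraries, or for H3K27ac on members. Intervals used Python 3.11.15 and numpy 2.4.6, and regions were tested with limma 3.58.1 in R 4.3.3. Groups, replicate numbers and tissues came from the sample titles. Differences over tissues used two-sided exact sign-flip permutation tests, adjusted by Benjamini-Hochberg over 7 planned tests. For 2 of these, which rest on H3K27ac lists that chose the members, only the values are given. Code was tested on simulated data. Named regions were, per tissue, the 2 members with the largest H3K27ac excess among those whose libraries both lay above the 14 others in relative length, and the 2 with the largest called H3K4me3 difference. Added to these were the 3 longest and the 3 most even members, and the 3 longest regions with H3K4me3 in 1 library or in none. Alternatives were other pseudocounts, normalizations, peak thresholds, overlaps, windows and H3K4me3 filters, a replicate block and leaving out each library. Leaving out the 2 shortest H3K4me3 lists was added after the data were seen. No gene or sequence is named, because no genome or annotation of calJac3 was used here.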

Additional observations from a re-analysis of the deposited data

How the results depend on the processing

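The 5 permutation tests in the report stayed past their threshold and kept their direction in all alternatives, except that the summit distance against H3K4me3 replicates, 31.25 bp without the 2 short H3K4me3 lists (chosen after seeing the data), had only 5 tissues left and could not reach it. Median H3K27ac length per member was 1409 bp when lists were cut to 20000 peaks, against 1325 bp. The number of members lay between 5278 and 7658. The count of members with an H3K4me3 difference between tissues was 109 without centring, 369 without the short lists and 121 to 334 when single libraries were left out. The count of members longer in at least 1 tissue was 452 without the short lists and 117 to 338 with single libraries left out. Whether replicate numbers pair samples across tissues is not said in the labels. Deviations of same-numbered libraries correlated by 0.08 (-0.00 to 0.22) between tissues in H3K27ac and by 0.07 (-0.12 to 0.30) in H3K4me3, with 6 of 28 and 8 of 21 pairs over 0.1, so the numbers were not treated as pairs. H3K4me3 was longer in replicate 2 in 7 of 7 tissues. With the replicate block, profile similarity was 0.41, 194 members differed between tissues and 261 were longer in at least 1. No result reversed. Of 686 recomputed tissue counts 149 moved by over 1.5 times, and of 1806 recomputed values at named regions 55 lost their call and 55 moved by more than the replicate spread. The cause of these changes was not tested. Unknown depth limits every statement on missing peaks.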
